A study of Mus musculus with 3 samples.

Results

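Cytochromes P450, UDP-glucuronosyltransferases (UGT), glutathione S-transferases (GST) and cytosolic sulfotransferases (SULT) are the enzyme superfamilies with which cells oxidise and conjugate drugs, food compounds, steroids and lipid mediators. Their genes were picked from the deposited tables by symbol alone, and 155 of 24091 listed genes matched: 93 P450, 19 UGT, 22 GST and 21 SULT genes. Symbols outside the naming pattern, such as those of the microsomal GST genes, Ugt8a and Cyp51, were not members. The measurements are bulk RNA-seq values from 3 libraries of lymphatic endothelial cells of the large intestine of C57BL/6 mice, called replicates 1, 2 and 3, which form 1 group. The cells were sorted from digested gut on surface markers that included CD31, podoplanin and LYVE1. The labels give no age, genotype, sex or treatment, and name no animal for any library, and the deposited tables' names hold a word that the labels do not explain and that was not used. The SDs given here may therefore hold technical spread alone.

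P450 enzymes are membrane haem proteins that insert oxygen into a substrate, with electrons that come mostly from the reductase Por. The other superfamilies transfer a polar group: glucuronic acid in the case of UGT enzymes, glutathione for GST enzymes and sulfate for SULT enzymes. In the gut these enzymes are known above all from the epithelium, where they meet compounds from food and microbes, while some P450 enzymes of vessels make lipid mediators from arachidonic acid. Values are in TPM, a transcript level corrected for transcript length and library size. No comparison between conditions was possible within 1 group, and an exact two-sided sign-flip test on 3 libraries could not give a p below 0.25, so no test was made and errors are SDs over 3 libraries (n = 3).

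The label of the cells held in part. The lymphatic marker genes ranged from Prox1, at 3.58 ± 1.12 TPM, to Lyve1, at 490 ± 156 TPM. Their summed level was 1692, 1771 and 984 TPM in replicates 1, 2 and 3. All 11 of them were at or above 1 TPM throughout. All 18 colon epithelial marker genes were too, with sums of 20554, 24090 and 25905 TPM, so the libraries also held abundant epithelial RNA. Fibroblast marker genes summed to 208, 143 and 517 TPM and macrophage marker genes to 240, 166 and 542 TPM, and all 10 and all 8 of them were highest in replicate 3. Blood endothelial marker genes summed to 836, 759 and 741 TPM, and smooth muscle and pericyte marker genes to 231, 185 and 411 TPM. Of the 6 hepatocyte marker genes none reached a TPM of 1 in all 3 libraries, Fgb was listed at 0, and Alb averaged 0.856 ± 0.194 TPM. In bulk RNA, fewer cells of a type and less RNA per cell cannot be told apart, and the part of each cell type in the levels below was not tested.

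Transcripts of the 155 genes made up 0.521%, 0.564% and 0.578% of all TPM in replicates 1, 2 and 3. GST genes led with a summed level of 2989 ± 40.3 TPM, P450 genes followed with 1364 ± 184 TPM, SULT genes with 774 ± 68.3 TPM and UGT genes with 418 ± 76.1 TPM. This order was the same in every library. The log2 difference between the GST and the P450 sum was 1.14 ± 0.22, that between the P450 and the SULT sum 0.81 ± 0.09, and that between the SULT and the UGT sum 0.90 ± 0.17. Each of these exceeded its own SD in all 3 libraries. GST genes thus held 54.0 ± 3.50% of the members' TPM, although they are 22 of the 155 genes. The gap between SULT and UGT depended on the highest genes: without the highest gene of each superfamily, the SULT minus UGT difference was 0.0799 on the log2 scale.

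**Figure D1:**
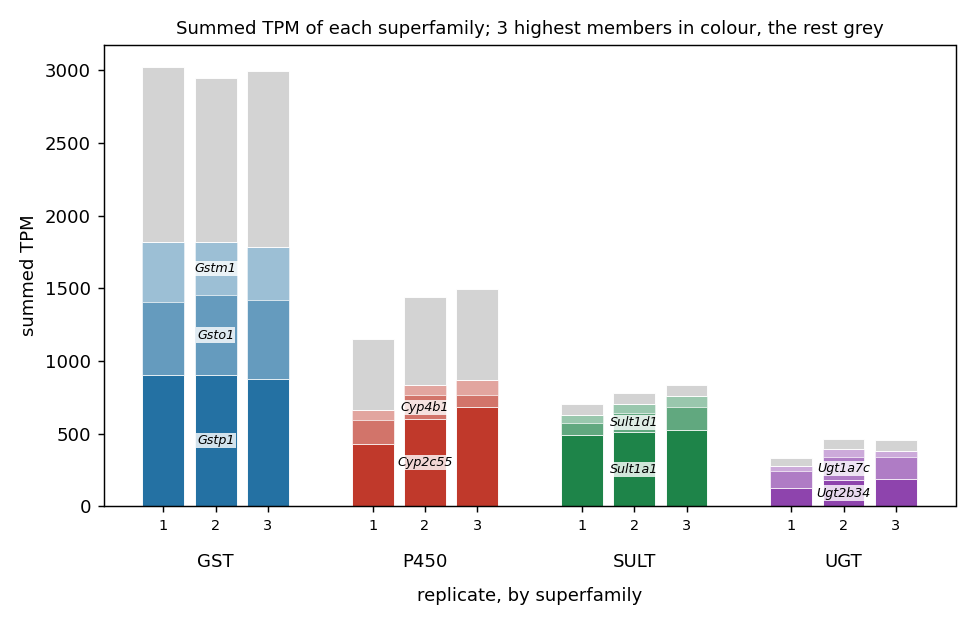
Summed TPM of each superfamily in replicates 1, 2 and 3, as stacked bars that start at 0; the 3 highest members of each superfamily are coloured from dark to light and all others are grey. In the deposited values, GST sums stay near 2989 TPM in each library, and Sult1a1 alone holds 65.8% of the SULT sum on average.

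A gene was counted as expressed where each library gave it at least 1 TPM, which 64 of the 155 members reached, or 41.3%, against 53.4% of all listed genes. At least 10 TPM in each library was reached by 48 members, or 31.0%, against 31.7% of all genes, while 39 members, or 25.2%, were listed at 0 in every library, against 20.9% of all genes. A further 51 members, or 32.9%, stayed under 1 without being at 0 throughout, against 20.1% of all genes, and only Cyp26b1 lay on both sides of that level. The 49 members of mean TPM 10 or more carried 98.9% of the members' summed TPM. The share expressed differed by superfamily, with 20 of 22 GST genes (90.9%), 7 of 19 UGT genes (36.8%), 32 of 93 P450 genes (34.4%) and 5 of 21 SULT genes (23.8%). The median member lay below the median of all listed genes by 1.49 ± 0.12 on the log2(TPM + 1) scale. Just inside a mean TPM of 1 were Gsto2 at 1.36 ± 0.236, Cyp26b1 at 1.85 ± 1.69 and Cyp2j9 at 1.96 ± 0.457 TPM, and just outside it were Cyp2u1 at 0.808 ± 0.0846, Cyp2j13 at 0.663 ± 0.0931 and Cyp3a25 at 0.548 ± 0.240 TPM. An exact 0 is reported as listed at 0, since the tables do not show how many reads a gene could have had. Of the 39 members at 0, 17 share over 10% of their 50-base transcript windows with another gene in the GENCODE M21 annotation. So do 62 of the 153 members matched in that annotation.

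**Figure D2:**
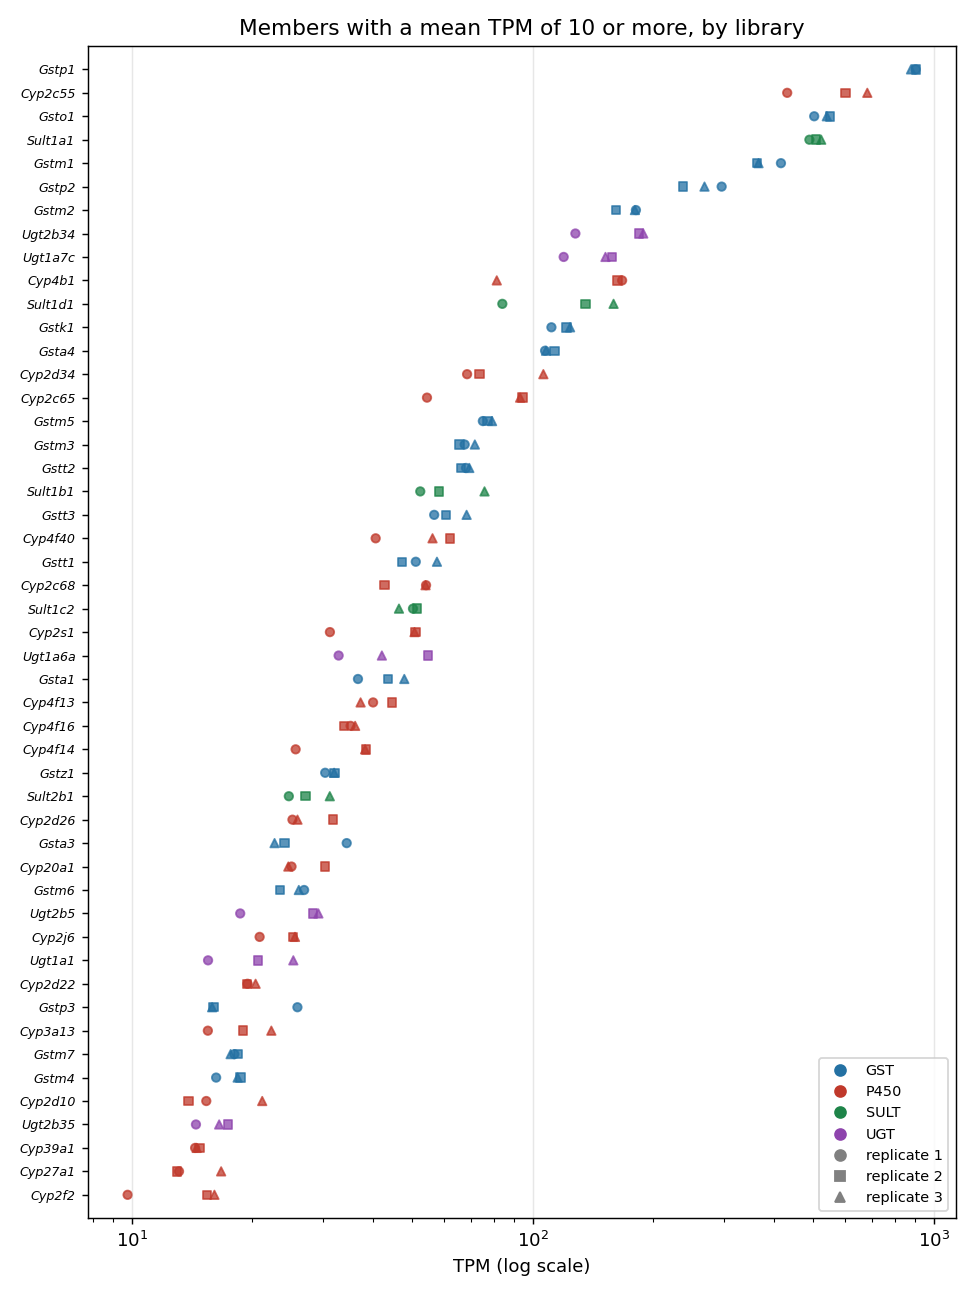
TPM (log scale) of the 49 members of mean TPM 10 or more, in descending order of the mean, with colour for the superfamily and a marker for each library. Most GST genes have 3 markers close together, whereas replicate 3 of Cyp4b1 (81.4 TPM) stands apart from the others (167 and 163 TPM).

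The members of highest level came from all 4 superfamilies. Gstp1 was highest in each library. The values of Cyp2c55, Gsto1 and Sult1a1, the next in order, overlapped between libraries, so their order is not settled. Gstm1 and Gstp2 followed, apart from each other and from their neighbours, and then Gstm2, Ugt2b34, Ugt1a7c and Cyp4b1, whose values overlapped in turn.

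Pi class GST enzymes conjugate glutathione to electrophiles, and Gstp1 (Entrez 14870, chromosome 19, 4035411 to 4037912, mm10) had 902, 904 and 878 TPM in replicates 1, 2 and 3. Its deposited level was thus nearly even across the libraries and lay at percentile 99.3 of all genes. Under median-of-ratios scaling the values were 1001, 855 and 827, so this evenness depends on the scaling. Gstp2, its neighbour on the chromosome, had 296, 237 and 268 TPM, and Gstp3 25.9, 16.0 and 15.9 TPM. Gstp1 exceeded Gstp2 by 3.38 ± 0.392-fold. In the GENCODE M21 annotation, however, 62.3% of the 50-base windows of the longest Gstp1 transcript also occur in Gstp2 transcripts, so the split between these 2 genes depends on how shared reads were assigned, which is not given in the sources used here. Both levels would also be affected if such reads had been left out. The start regions of Gstp1 and Gstp2 are shown because Gstp1 is the highest member and Gstp2 is its near copy. They are given 5′ to 3′ in the direction of transcription, from 250 bases before to 50 after the start (RefSeq, GRCm38.p6, minus strand), Gstp1 at chr19:4037863-4038162 and Gstp2 at chr19:4042172-4042471. Capitals mark TGAGTCAGC, an element known to bind AP-1 and NRF2 factors, and GCGTG, the core bound by the aryl hydrocarbon receptor with ARNT.

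Gstp1: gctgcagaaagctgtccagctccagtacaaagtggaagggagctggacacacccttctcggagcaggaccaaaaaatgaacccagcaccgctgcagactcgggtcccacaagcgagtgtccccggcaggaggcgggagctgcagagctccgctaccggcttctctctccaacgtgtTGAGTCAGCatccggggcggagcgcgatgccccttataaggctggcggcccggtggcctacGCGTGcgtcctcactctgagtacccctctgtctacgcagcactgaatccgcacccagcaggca
Gstp2: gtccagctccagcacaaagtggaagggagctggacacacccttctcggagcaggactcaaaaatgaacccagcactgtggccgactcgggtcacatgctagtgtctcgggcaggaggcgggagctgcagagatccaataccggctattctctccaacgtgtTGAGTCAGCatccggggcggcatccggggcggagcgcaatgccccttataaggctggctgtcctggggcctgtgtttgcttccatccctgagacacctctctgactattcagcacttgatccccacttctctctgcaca

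The 2 regions were identical at 76.6% of aligned positions, with a longest shared run of 43 bases, against 51.2% and 8 bases for Gstp1 and Gstp3. TGAGTCAGC starts 74 bases before the start of Gstp1 and 89 before that of Gstp2. It was searched on both strands after these sequences had been read, and it occurs in the start regions of 0.466% of the listed genes that have one. The GCGTG match lies 13 bases before the start of Gstp1, and these letters do not occur in the Gstp2 region.

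All 7 mu class genes were expressed. Gstm1 (chromosome 3, 108012250 to 108017973) had 416, 363 and 366 TPM in replicates 1, 2 and 3, and Gstm2 181, 161 and 180 TPM. Gstm1 was the higher gene in every library, by 2.19 ± 0.141-fold. Of their 50-base windows, Gstm1 shares 23.1% and Gstm2 9.36% with other genes, so this ratio depends on how shared reads were assigned. For Gstm3 the share is 28.8%. Gstm5 (77.2 ± 2.04), Gstm3 (68.4 ± 3.06), Gstm6 (25.5 ± 1.83) and Gstm4 (17.8 ± 1.34) followed, in TPM, and Gstm7 lay between 17.7 and 18.4 TPM. Of the chromosomal clusters described below, the mu class cluster was the largest with every gene expressed, with a summed level of 762 ± 36.8 TPM. Gsto1 of the omega class, which also reduces dehydroascorbate, had 504, 551 and 541 TPM, whereas its neighbour Gsto2 had 1.10, 1.57 and 1.41 TPM. Gsto1 thus exceeded Gsto2 by 398 ± 53.5-fold, and no 50-base window of either transcript occurs in another gene.

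Among alpha class genes, Gsta4, whose enzyme acts on the lipid peroxidation product hydroxynonenal, had 107, 113 and 108 TPM. Gsta1 averaged 42.7 ± 5.64 and Gsta3 27.1 ± 6.38 TPM, while Gsta2 stayed at or below 0.234 TPM. Of the windows of Gsta1, 89.7% occur in another gene, mainly the predicted gene Gm3776, so its value is uncertain. The theta class genes Gstt2 (68.0 ± 1.66), Gstt3 (62.0 ± 5.90) and Gstt1 (52.0 ± 5.32) were close in level, in TPM, and Gstt4, in the same cluster, averaged 0.0790 ± 0.0709 TPM. Gstk1, the kappa class enzyme of mitochondria and peroxisomes, averaged 119 ± 6.65 TPM, and Gstz1, which isomerises maleylacetoacetate in tyrosine breakdown, 31.5 ± 0.942 TPM. Gsta2 and Gstt4 were the GST genes that were not expressed, and no GST gene was listed at 0 in all 3 libraries. Of the windows of Gsta2, 64.2% occur in another gene, mainly Gsta1, so its low value is uncertain too.

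The antioxidant response core TGACNNNGC, which is bound by NRF2 with small MAF proteins, was found in the start regions of 3 GST genes, Gsta3 (chr1:21240449-21240487, + strand), Gstm5 (chr3:107895797-107895835, + strand), Gstm7 (chr3:107931720-107931758, - strand). The sites are printed because they sit in expressed GST genes, with the core in capitals and 15 bases on either side, in the direction of the gene.

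Gsta3: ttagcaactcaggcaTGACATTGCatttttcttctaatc
Gstm5: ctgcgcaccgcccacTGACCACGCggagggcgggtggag
Gstm7: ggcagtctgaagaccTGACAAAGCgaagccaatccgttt

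Searched on both strands, this core occurs in the start regions of 10 of the 127 members that have one in the RefSeq table, or 7.87%, against 14.9% of listed genes. Of the members with a start region, 9 of the 57 of mean TPM 1 or more hold it (15.8%) and 1 of the 70 below that level (1.43%). Among all genes the counts are 1807 of 10674 (16.9%) and 882 of 7364. The xenobiotic response core GCGTG was likewise less frequent in members (19.7%) than in listed genes (42.0%), and so it was within members of mean TPM 1 or more (28.1%, against 54.8% of such genes). A match of these letters is a description and not a binding site.

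P450 genes of families 1 to 3, which act mostly on foreign compounds, hold 50 members, and 17 of them were expressed. Cyp2c55 (Entrez 72082, chromosome 19, 39006940 to 39042690), known as a P450 of the mouse colon that oxidises arachidonic acid, had 431, 602 and 683 TPM in replicates 1, 2 and 3. Replicate 1 was lowest, as it was for 62.2% of all genes of mean TPM 1 or more. Cyp2c55 alone held 41.6 ± 4.16% of the P450 sum. Cyp2c65 had 54.5, 94.5 and 93.1 TPM and Cyp2c68 54.2, 42.7 and 54.1 TPM. Cyp2c69 (3.04 ± 0.718) and Cyp2c66 (2.35 ± 0.785) were the other expressed Cyp2c genes, in TPM. The remaining 10 of the 15 Cyp2c genes stayed under 1 TPM in every library, and 3 of them, Cyp2c38, Cyp2c39 and Cyp2c54, were listed at 0. Cyp2c68 shares 43.3% of its windows with other genes and Cyp2c65 20.6%, whereas Cyp2c55 shares 0.514%.

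Of the 9 Cyp2d genes, 7 were expressed, among them Cyp2d13, which RefSeq lists as a transcribed pseudogene. Cyp2d34 had 68.6, 73.8 and 106 TPM in replicates 1, 2 and 3, highest in replicate 3. Cyp2d26 averaged 27.6 ± 3.61, Cyp2d22 19.8 ± 0.547 and Cyp2d10 16.8 ± 3.87 TPM. In the Cyp2a, Cyp2b, Cyp2f, Cyp2g, Cyp2s and Cyp2t cluster of chromosome 7, Cyp2s1 (44.3 ± 11.4 TPM), a P450 of barrier epithelia, and Cyp2f2 (13.8 ± 3.47 TPM), known from the lung airway, stood out from 11 neighbours under 1 TPM, 6 of which were listed at 0. Cyp3a13 averaged 18.9 ± 3.41 TPM and held 96.9 ± 1.13% of the Cyp3a sum, while Cyp3a11, a major P450 of mouse liver, averaged 0.0260 ± 0.0318 TPM. The Cyp1 genes, which the aryl hydrocarbon receptor is known to induce, were low, with Cyp1a1 at 0.178, 0.876 and 0.282 TPM, Cyp1b1 at 0.116, 0.106 and 0.208 TPM, and Cyp1a2 listed at 0. The alcohol-oxidising Cyp2e1 averaged 2.90 ± 0.418 TPM.

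**Figure D3:**
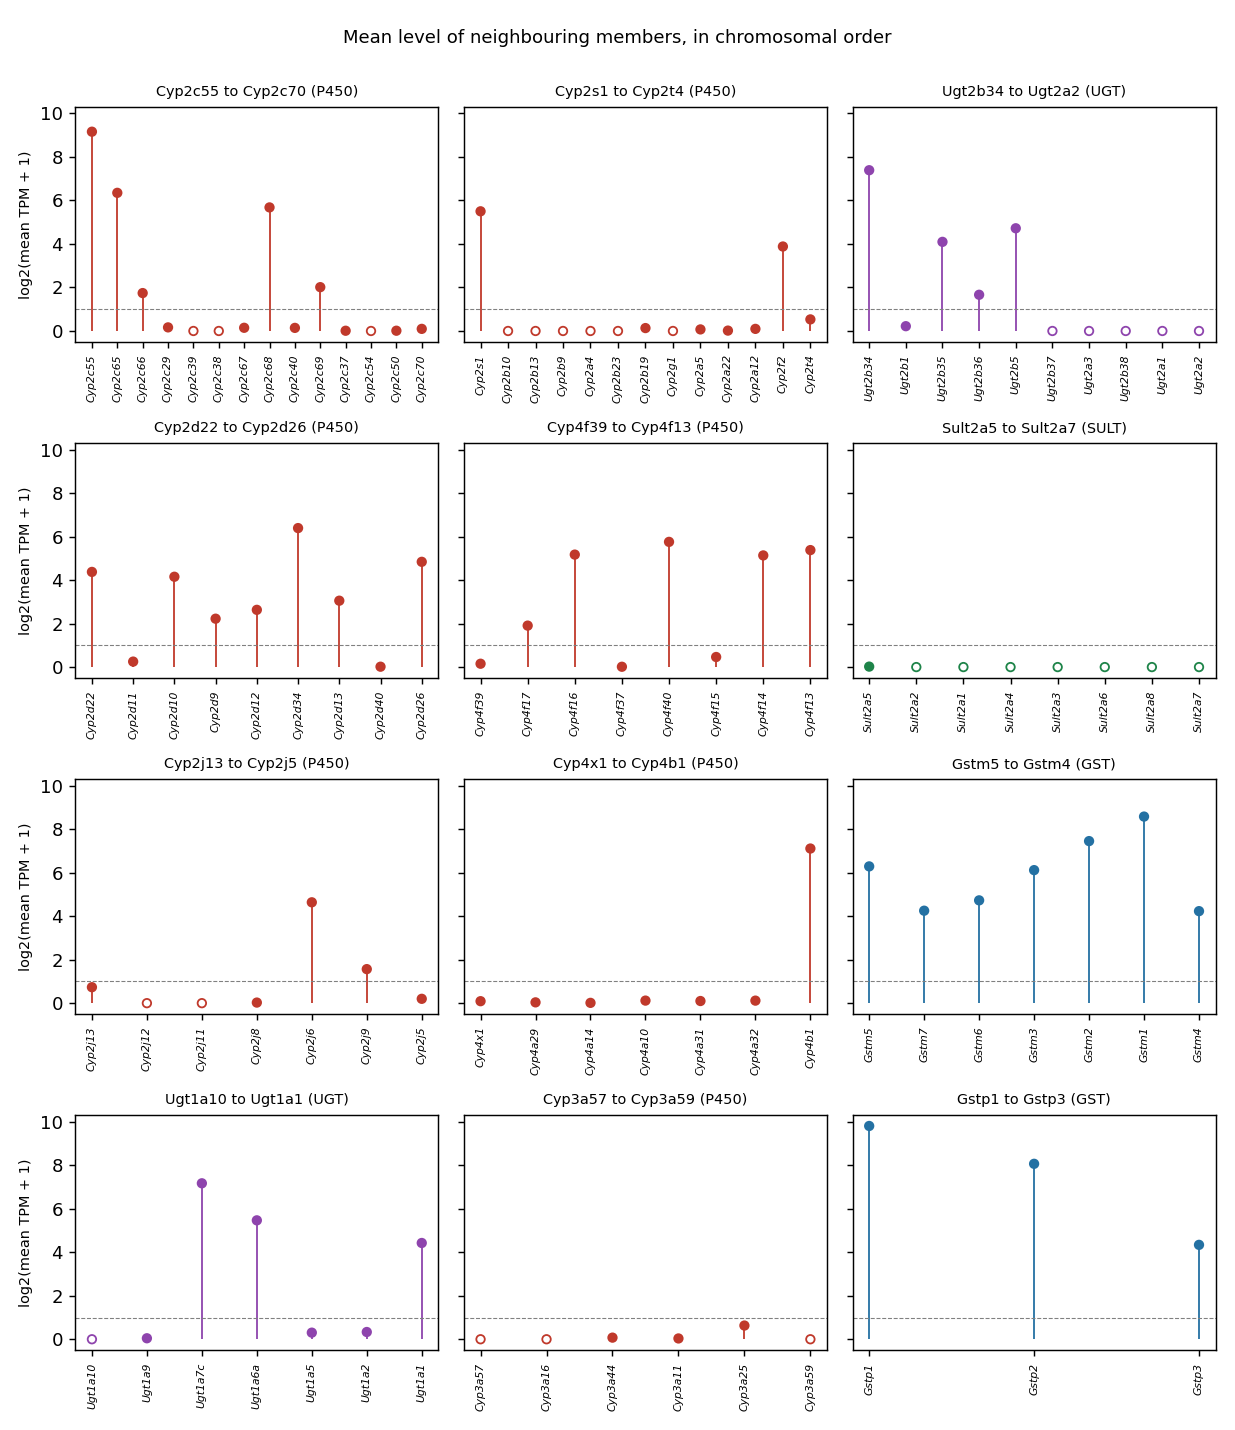
Mean level, as log2(mean TPM + 1), of neighbouring members in 12 chromosomal clusters, each panel in chromosomal order; open circles are genes listed at 0 in all 3 libraries and the dashed line is a TPM of 1. Cyp2c55, Cyp4b1 and Ugt2b34 stand above the other genes of their clusters, and all 7 mu class GST genes lie above the line.

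Members lie close together on the chromosomes: 124 of the 155 fall in 22 groups of the same superfamily with gaps of at most 500 kb. In several of these groups 1 gene held most of the level. Cyp2c55 made up 80.5 ± 1.15% of the Cyp2c cluster of 14 genes, Cyp2j6 89.5 ± 1.06% of the Cyp2j cluster of 7, and Ugt2b34 79.2 ± 0.343% of the Ugt2 cluster of 10. The Sult2a cluster of 8 genes on chromosome 7 had 7 members listed at 0 and the last, Sult2a5, at 0.0149 ± 0.0258 TPM. Of their 50-base windows, Sult2a2 shares 62.1%, Sult2a5 34.5%, Sult2a1 33.2% and Sult2a4 25.5% with other genes. These low values thus depend on how shared reads were assigned. For Sult2a3 the share is 8.36% and for Sult2a6 7.35%, and Sult2a7 and Sult2a8 share no window. Of the 64 members of mean TPM 1 or more with a matched transcript, 22 share more than 10% of their 50-base windows with another gene, and the median share is 1.63%.

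The start regions of 10 members hold CAAAGTCCA, a motif specific to the nuclear receptor HNF4, which directs many genes of gut epithelium and liver. That is 7.87% of the members with a start region, against 0.549% of the listed genes. The sites are shown because 6 of the 10 genes are neighbours in the Cyp2c cluster and their levels span a wide range. They are given from the highest mean TPM to the lowest, in the direction of the gene, with the motif in capitals and 15 bases on either side, from RefSeq start regions of GRCm38.p6: Cyp2c65 (chr19:39060875-39060913), Sult1b1 (chr5:87536174-87536212), Cyp2c68 (chr19:39741155-39741193), Cyp2c69 (chr19:39886821-39886859), Cyp8b1 (chr9:121916349-121916387), Cyp2c67 (chr19:39649144-39649182), Cyp2c40 (chr19:39812836-39812874), Cyp2c70 (chr19:40187327-40187365), Cyp3a11 (chr5:145879940-145879978), Cyp3a16 (chr5:145469799-145469837).

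Cyp2c65: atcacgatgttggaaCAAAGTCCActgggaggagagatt
Sult1b1: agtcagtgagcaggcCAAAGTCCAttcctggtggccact
Cyp2c68: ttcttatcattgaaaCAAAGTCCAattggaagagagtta
Cyp2c69: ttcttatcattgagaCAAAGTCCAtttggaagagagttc
Cyp8b1: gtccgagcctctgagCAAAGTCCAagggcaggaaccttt
Cyp2c67: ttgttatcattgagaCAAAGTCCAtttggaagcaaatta
Cyp2c40: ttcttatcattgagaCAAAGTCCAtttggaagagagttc
Cyp2c70: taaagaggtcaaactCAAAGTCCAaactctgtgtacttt
Cyp3a11: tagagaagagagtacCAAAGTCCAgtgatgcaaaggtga
Cyp3a16: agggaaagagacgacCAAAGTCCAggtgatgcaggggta

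Cyp2c65 (80.7 ± 22.7 TPM), Sult1b1 (62.2 ± 12.2 TPM) and Cyp2c68 (50.3 ± 6.61 TPM) hold the motif, and so do Cyp2c67 (0.107 ± 0.0929 TPM), Cyp2c40 (0.104 ± 0.110 TPM) and Cyp3a16, listed at 0. Levels of genes with these letters thus ran from listed at 0 to 80.7 TPM. Of the 10, 5 had a mean TPM of 1 or more, as did 57 of the 127 members with a start region. Among all listed genes with a start region, 10674 of 18038 did. Of their windows, Cyp2c40 shares 72.1%, Cyp2c69 54.8% and Cyp2c67 52.8% with other genes, so these values depend on how shared reads were assigned. The start regions of Cyp2c40 and Cyp2c69 are identical at 80.9% of aligned positions, so such matches are not independent. No match was found in the start region of Cyp2c55. Hnf4a itself averaged 195 ± 61.5 TPM.

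P450 enzymes that act on fatty acids and eicosanoids were represented by 24 members, 10 of them expressed. Cyp4b1 (chromosome 4, 115624698 to 115647721), a fatty acid hydroxylase, had 167, 163 and 81.4 TPM in replicates 1, 2 and 3, and its 6 neighbours of the Cyp4x and Cyp4a subfamilies all stayed under 1 TPM. Replicate 3 lay at 0.493 times the mean of the other libraries. This was the lowest such ratio among the 65 members of mean TPM 1 or more, and the next lowest was 0.758 for Gstp3. The summed level of the lymphatic markers was 1692, 1771 and 984 TPM in the same order. Blood endothelial markers were mixed. Of those 11 genes, 4 were highest in replicate 3. In order of mean level, Aqp1 led with 210, 205 and 184 TPM, and Gpihbp1 had 193, 176 and 88.9 TPM. Emcn followed with 156, 146 and 85.7 TPM, and Plvap with 88.2, 53.4 and 178 TPM. The relation of Cyp4b1 to either marker set was not tested. The Cyp4f genes, whose enzymes hydroxylate leukotrienes and long-chain fatty acids, had 4 members above a mean of 10 TPM. These were Cyp4f40 (53.1 ± 11.2), Cyp4f13 (40.6 ± 3.71), Cyp4f14 (34.1 ± 7.33), in TPM, and Cyp4f16, with 35.2, 33.9 and 36.1 TPM in replicates 1, 2 and 3. Cyp4f17 (2.75 ± 0.199) and Cyp4f18 (2.24 ± 0.796) were lower, in TPM. Cyp2j6 (23.9 ± 2.63 TPM), of a subfamily that makes epoxides of arachidonic acid, its neighbour Cyp2j9 and Cyp4v3 (8.44 ± 0.458 TPM) were also expressed, whereas all 5 Cyp4a genes, known as PPARA targets in liver, stayed under 1 TPM.

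Genes of bile acid and cholesterol side chain oxidation had 3 of 6 members expressed. The oxysterol hydroxylase gene Cyp39a1 had 14.4, 14.8 and 14.5 TPM in replicates 1, 2 and 3, and the mitochondrial sterol hydroxylase gene Cyp27a1 13.1, 13.0 and 16.7 TPM. Cyp8b1, which sets the kind of bile acid made, averaged 2.25 ± 0.439 TPM. Cyp7b1 (0.377 ± 0.286 TPM) and the brain cholesterol hydroxylase gene Cyp46a1 (0.0750 ± 0.0561 TPM) were low, and Cyp7a1, the rate-limiting enzyme of bile acid synthesis, was listed at 0. None of the 6 steroid hormone synthesis genes was expressed. Cyp21a1 averaged 0.152 ± 0.0607, Cyp11a1 0.129 ± 0.0800 and the aromatase gene Cyp19a1 0.0625 ± 0.0443 TPM, and Cyp11b1, Cyp11b2 and Cyp17a1 were listed at 0. Of the vitamin D genes, the activating hydroxylase gene Cyp2r1 had 1.66, 1.63 and 2.69 TPM in replicates 1, 2 and 3, Cyp27b1 averaged 0.289 ± 0.109 TPM, and Cyp24a1, whose enzyme breaks vitamin D down, was listed at 0. Of the retinoic acid breakdown genes, Cyp26b1 had 1.09, 0.673 and 3.78 TPM, Cyp26a1 averaged 0.121 ± 0.131 TPM, and Cyp26c1 was listed at 0. Replicate 3 of Cyp26b1 stood at 4.28 times the mean of the other libraries, the highest ratio among members of mean TPM 1 or more. Fibroblast, smooth muscle and pericyte, macrophage and colon epithelial marker sums were highest in that library too. The lymphatic and blood endothelial sums were lowest there, although 4 of the 11 blood endothelial genes were highest in it. The part of any of these cell types in the value was not tested. Cyp20a1, a P450 of unknown substrate, averaged 26.7 ± 3.21 TPM.

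Among UGT genes, Ugt2b34 (Entrez 100727, chromosome 5, 86889770 to 86906937) had 128, 184 and 189 TPM in replicates 1, 2 and 3. Ugt1a7c had 120, 158 and 152 TPM, and these 2 genes together held 74.2 ± 0.816% of the UGT sum. Ugt1a6a had 32.8, 54.9 and 42.1 TPM, and Ugt1a1, whose enzyme conjugates bilirubin, 15.5, 20.7 and 25.3 TPM. Ugt2b5 averaged 25.4 ± 5.86, Ugt2b35 16.1 ± 1.49 and Ugt2b36 2.17 ± 0.951 TPM. All 7 expressed UGT genes were lowest in replicate 1, and 6 of them, all but Ugt2b35, were so under median-of-ratios scaling, against 62.2% and 37.2% of all genes of mean TPM 1 or more. The summed level of the colon epithelial markers, 20554, 24090 and 25905 TPM, was lowest in that library too in the deposited values. Of these 18 genes, 10 were lowest there, against the same 62.2% of all genes. Car1, the highest of them, had 2875, 5707 and 5629 TPM, and much of the difference in the sum came from this gene. The next in level were Krt8 (3354, 3806 and 4121), Lgals4 (3495, 3420 and 3856) and Krt19 (3390, 3367 and 3612), in TPM. Of these, only Krt8 was lowest in replicate 1. The marker sum was not computed under median-of-ratios scaling, and its part in the UGT levels was not tested. The Ugt1a genes share their last exons and differ in the first, and 69.3% of the windows of Ugt1a7c and all of those of Ugt1a6a occur in another gene, so the split within this locus is uncertain. The locus as a whole summed to 207 ± 34.5 TPM, close to the 211 ± 42.2 TPM of the Ugt2 genes. This locus sum would also be affected if shared reads had been left out. So would the UGT sum and its gap to the SULT sum. Ugt1a10, all 3 Ugt2a genes, Ugt2b37, Ugt2b38 and the Ugt3a genes Ugt3a1 and Ugt3a2 were listed at 0. For Ugt2a1 and Ugt2a2, 97.0% and 94.5% of the windows are shared, for Ugt1a10 66.2%, for Ugt2b38 37.4% and for Ugt2b37 18.3%. For Ugt2a3 the share is 4.55%, and for each Ugt3a gene it is 9.4%.

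SULT levels were carried by 5 genes, which made up 99.9 ± 0.0408% of the sum. Sult1a1 (Entrez 20887, chromosome 7, 126672865 to 126690443), the phenol sulfotransferase, had 490, 509 and 524 TPM in replicates 1, 2 and 3. Sult1d1, whose enzyme acts on catecholamines in mice, had 84.0, 135 and 159 TPM. Sult1b1, which sulfates thyroid hormones and phenols, had 52.5, 58.3 and 75.9 TPM, and both were highest in replicate 3. Sult1c2 averaged 49.4 ± 2.66 TPM, and Sult2b1, a cholesterol sulfotransferase, 27.7 ± 3.30 TPM. Sult1a1 exceeded Sult1d1 by 4.30 ± 1.35-fold and Sult1b1 by 8.33 ± 1.26-fold. The estrogen sulfotransferase gene Sult1e1, a neighbour of Sult1b1 and Sult1d1, had 0.116, 0 and 0.286 TPM. Sult2a1, the hydroxysteroid sulfotransferase of liver, was listed at 0, with 33.2% of its windows in another gene. Both Sult3a genes were listed at 0 too, and Sult6b1 averaged 0.337 ± 0.0550, Sult5a1 0.125 ± 0.108 and Sult4a1 0.103 ± 0.0813 TPM.

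Genes that supply or serve these enzymes were taken from lists by function. All 6 electron donor genes were expressed, led by Cyb5a (325 ± 27.1 TPM), Cyb5r3 (221 ± 30.2 TPM) and Cyb5b (122 ± 18.7 TPM), and Por averaged 55.6 ± 6.04 TPM. All 3 genes for UDP-glucuronic acid supply were expressed, with Ugdh at 212 ± 50.8, Ugp2 at 92.4 ± 8.30 and Slc35d1 at 16.7 ± 6.04 TPM. All 4 genes for supply of the sulfate donor PAPS were too, with Papss2 at 74.9, 174 and 154 TPM in replicates 1, 2 and 3, Papss1 at 106 ± 14.3 and Slc35b2 at 70.1 ± 2.01 TPM. The 8 glutathione supply genes were all expressed, led by Gss (125 ± 4.40 TPM), Gsr (85.2 ± 3.50 TPM) and Cth (71.1 ± 11.9 TPM). The 3 microsomal GST genes, which belong to another protein family, summed to 1911 ± 193 TPM, with Mgst3 at 1276 ± 172, Mgst2 at 394 ± 31.1 and Mgst1 at 241 ± 12.2 TPM. Of 17 other drug metabolism genes 16 were expressed, among them the alcohol dehydrogenase gene Adh1 (1015 ± 134 TPM) and the carboxylesterase gene Ces2c (115 ± 24.4 TPM). Of 8 efflux transporter genes 6 were expressed, led by Abcb1a (93.0 ± 17.2 TPM), Abcg2 (62.5 ± 5.76 TPM) and Abcc3 (50.9 ± 16.5 TPM). Of 15 regulator genes 13 were expressed, led by Hnf4a, Nfe2l2, which encodes NRF2 (133 ± 16.1 TPM), and the pregnane X receptor gene Nr1i2 (37.5 ± 3.41 TPM). The aryl hydrocarbon receptor gene Ahr averaged 7.82 ± 1.14 TPM. Besides the Cyp1 genes and Ugt1a6a given above, Nqo1, Tiparp and Ahrr are known targets of this receptor. Nqo1 and Tiparp averaged 77.2 ± 11.7 and 6.59 ± 0.812 TPM, whereas Ahrr was not expressed, at 0.793 ± 0.0866 TPM.

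The spread between libraries was set beside that of all genes. For the 65 members of mean TPM 1 or more, the median SD of log2(TPM + 1) was 0.19, and for the 13606 genes past the same filter it was also 0.19. By superfamily the median SD in the deposited TPM was 0.10 for 20 GST genes, 0.16 for 5 SULT genes, 0.28 for 33 P450 genes and 0.34 for 7 UGT genes. The genes that varied most were Cyp26b1, Cyp4b1, Cyp2w1, Cyp2d13 and Ugt2b36. Cyp2w1 had 2.83, 4.36 and 6.94 TPM in replicates 1, 2 and 3, Cyp2d13 4.54, 7.04 and 10.3 TPM, and Ugt2b36 1.08, 2.68 and 2.76 TPM. Of the 65 members, 34 were highest in replicate 3, or 52.3%, against 41.3% of all genes past the filter, and 38 were lowest in replicate 1, or 58.5%, against 62.2%. Median-of-ratios scaling moves all genes by 0.15, -0.08 and -0.09 on the log2 scale in replicates 1, 2 and 3, and with it 26 members were highest in replicate 3 and 22 lowest in replicate 1, against 31.2% and 37.2% of all genes. Ribosomal protein genes took 22.2%, 19.1% and 18.4% of TPM. Under median-of-ratios scaling Cyp4b1 in replicate 3 stood at 0.451 times and Cyp26b1 at 3.85 times the mean of the other libraries. With the same scaling, replicate 1 of Gstp1 and of Gstm1 stood at 1.19 and 1.34 times the mean of the other libraries.

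**Figure D4:**
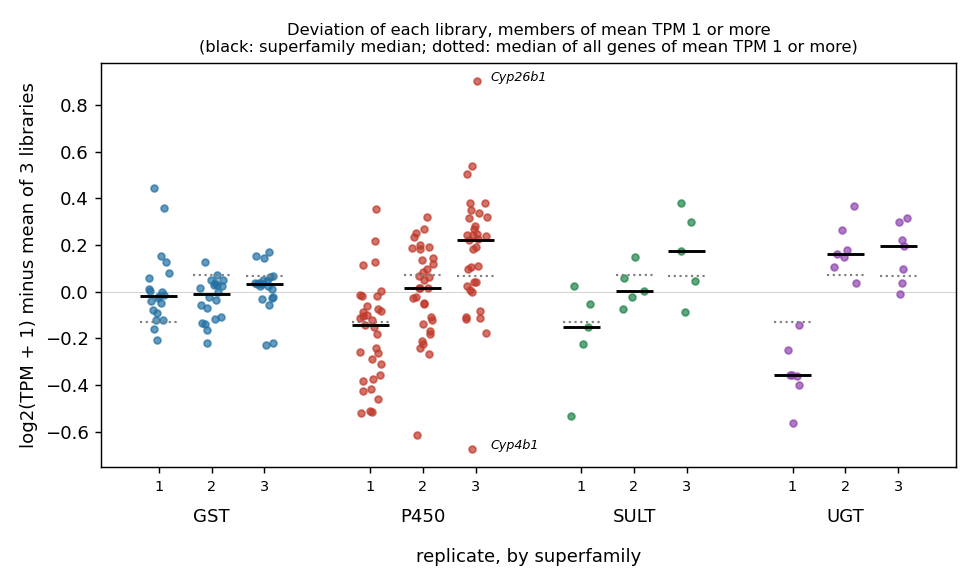
Deviation of each library from the mean of the 3 libraries, in log2(TPM + 1), for members of mean TPM 1 or more; black lines are superfamily medians and dotted lines the median of all 13606 genes past the filter. In the deposited TPM, GST medians lie between -0.02 and 0.03, while those of all genes run from -0.13 to 0.07. The 7 UGT genes are lowest in replicate 1 (6 of them under median-of-ratios scaling), with a median of -0.36 against -0.13 for all genes.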

How the data were processed

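RNA of sorted lymphatic endothelial cells was sequenced in 3 libraries of 1 group. The authors deposited 1 table per library with TPM values for 24091 genes, per the file headers. The submitters' processing notes name mm10, Cell Ranger 6.0.1 and HTSeq. How TPM was computed, the annotation and the handling of shared reads are not given in the sources used here. TPM keeps no sequencing depth, so no counting interval is given.

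Members were taken by symbol pattern, and sums, medians, SDs and shares were computed with Python 3.11.15, numpy 2.4.6 and pandas 2.3.3, and plotted with matplotlib 3.10.9. The scaling and deviation steps were tested on simulated data. A pseudocount of 1 was used on the log2 scale. Positions and start regions are RefSeq GRCm38.p6, of which mm10 is the same build: all 155 members matched by Entrez ID, 154 with the same symbol, and 127 had a start region. Shared windows of 50 bases were counted in GENCODE M21 transcripts, where 153 members matched. Members, lists and rules were chosen with earlier results of these data known. Named genes are all members of mean TPM 10 or more, the 5 highest of each superfamily, the 3 highest of each role list, the 5 most variable, those nearest to a mean TPM of 1, all bile acid, steroid, retinoic acid and vitamin D genes, a few well-known members, and the 3 highest genes of each supply list. A gene that this rule covers is not reported here. The motif TGAGTCAGC, the ratios between single genes and the count of members lowest in replicate 1 were chosen after the values were seen. So were the other members named and the targets Nqo1, Tiparp and Ahrr. Alternatives were other TPM thresholds, a pseudocount of 0.1, other filters, 2 scalings, dropping the highest member, and leaving out each replicate.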

Additional observations from a re-analysis of the deposited data

How the results depend on the processing

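The count of 64 expressed members ranged from 50 at a TPM threshold of 5 to 67 at 0.5, and from 64 to 65 without any 1 replicate. Rescaling TPM without 87 ribosomal protein genes and Mir6236 raised the sums to 3988 (GST), 1815 (P450), 1031 (SULT) and 556 TPM (UGT). Without the highest gene of each superfamily the sums were 2094, 792, 266 and 251 TPM. The log2 differences without those genes were 1.41 (GST minus P450), 2.99 (GST minus SULT), 1.59 (P450 minus SULT) and 0.0799 (SULT minus UGT). Leaving out 1 of 3 libraries cannot move a mean over them by more than its SD, so for the sums, differences, shares and median level it shows nothing about stability. The median of members minus that of all genes, -1.49, became -3.02 with a pseudocount of 0.1 and -1.72 after rescaling. Among genes of mean TPM 1 or more it was 0.85, a filter that leaves out the low members by construction. The median SD of members minus that of all genes, close to 0, was -0.00905 at a mean TPM of 5 or more, -0.0456 with no filter, 0.00852 after rescaling and 0.0227 under median-of-ratios scaling, and lay between -0.0365 and 0.0341 without 1 replicate, so its sign is not settled. The count of members lowest in replicate 1 fell to 22 of 65 under median-of-ratios scaling. The cause of these changes was not tested, apart from those that follow from the alternative itself. No paired analysis was possible because there is 1 group.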
